A study of Mus musculus with 5 samples.

Results

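Skeletal muscle genes were described in knees of E14.5 mouse embryos. The 37 genes are the myogenic transcription factors, the myosins, actins and troponins of the sarcomere, and genes for its assembly, for excitation and calcium release, for energy supply and for myoblast fusion. They were chosen by name from a fixed list, and all 37 were among the 19346 targets measured. RNA was read by GeoMx digital spatial profiling, an assay in which probes bound to a tissue section carry barcodes that light sets free from 1 outlined region at a time. There were 2 control animals, which carry the Prrx1-Cre driver alone, and 2 GOF animals, which carry Prrx1-Cre and an activating (gain-of-function) Pdgfra allele, which encodes receptor alpha for platelet-derived growth factor. The shared driver acts in the mesenchyme of the limb bud, and all animals were put in 1 batch. Values are given for replicate 1 and then replicate 2 of a genotype throughout. The regions were 60 of border-zone cartilage, 61 of inter-joint perichondrium, 33 of inter-joint space, 17 of fusion (GOF animals alone), 4 of reference cartilage and 4 of reference mesenchyme, and those outside reference mesenchyme are called the other regions. These names follow the region tags, whose meaning no label defines, and the tags call both reference types controls. For both of these, an animal has a single region. A no-template control was not analysed here.

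Skeletal muscle of the limb is built by myogenic cells that migrate from the somites, whereas cartilage, tendon and the connective tissue of muscle come from limb mesenchyme. Pax3 and Pax7 mark the progenitors, Myf5, Myod1 and Myf6 commit and mature the lineage, and Myog drives differentiation into fibres that fuse and assemble sarcomeres. In the sarcomere, thick filaments of myosin pull on thin filaments of actin, and troponin on the thin filament makes this depend on calcium. Embryonic and perinatal myosin heavy chains and cardiac-type actin precede the adult forms in developing limb muscle.

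The myogenic factors of the Myod1 family bind the E-box, CANNTG. Promoters are shown for Myog, the myogenic factor that stood clear of the other regions below, and for Acta1 and Actc1, the skeletal and cardiac alpha actins of the thin filament, since their levels were high together in the same regions. Each runs 5′ to 3′ on the gene's strand, from 250 bases before to 50 bases after the start site in RefSeq on build GRCm38.p6, with E-boxes in capitals. The windows are chr1:134289754-134290053 on the plus strand for Myog, chr8:123894726-123895025 on the minus strand for Acta1 and chr2:114052826-114053125 on the minus strand for Actc1.
Myog: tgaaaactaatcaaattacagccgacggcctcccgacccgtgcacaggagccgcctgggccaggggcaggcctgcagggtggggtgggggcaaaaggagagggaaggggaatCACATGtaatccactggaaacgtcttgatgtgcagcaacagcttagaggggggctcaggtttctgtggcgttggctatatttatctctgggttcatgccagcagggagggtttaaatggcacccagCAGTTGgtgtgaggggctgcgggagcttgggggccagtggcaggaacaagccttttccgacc
Acta1: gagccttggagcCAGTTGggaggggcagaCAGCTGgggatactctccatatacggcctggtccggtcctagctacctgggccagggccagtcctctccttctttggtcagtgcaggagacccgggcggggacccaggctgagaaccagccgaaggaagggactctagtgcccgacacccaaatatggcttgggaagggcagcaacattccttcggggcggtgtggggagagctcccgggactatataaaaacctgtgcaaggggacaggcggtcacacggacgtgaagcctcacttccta
Actc1: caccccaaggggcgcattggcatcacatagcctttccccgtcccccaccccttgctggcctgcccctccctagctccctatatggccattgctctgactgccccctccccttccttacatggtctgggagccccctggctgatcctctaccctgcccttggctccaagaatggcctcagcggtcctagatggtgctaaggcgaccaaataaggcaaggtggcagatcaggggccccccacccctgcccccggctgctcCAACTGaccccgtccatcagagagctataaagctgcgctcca
The E-box, whose consensus reads the same on both strands, matched 2 times in the Myog window, 2 times in that of Acta1 and 1 time in that of Actc1. RefSeq promoters were given for 30 of the 37 genes, and 26 of these 30 held at least 1 E-box. Of all 27025 RefSeq promoters of this length 72.1% did, so an E-box is common by its shortness alone. At least 2 were found in 19 of the 30 and in 39.6% of all promoters. The CArG box, the serum response factor motif, was found on either strand in 3 of the 30, Acta1, Actc1 and Myom1, and in 1.6% of all promoters. TATAAA, on either strand, was found in 8 of the 30 and in 14.2% of all. Myod1, Myf6, Pax3, Neb, Tnnt3, Tnni2 and Mymk had no entry.

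Values are counts that the authors scaled so that the upper quartile over targets was 10.9 in every region. The total of recovered counts in a region ranged from 55471 to 617062 (median 217177). The negative probe, which measures background, read between 1.72 and 4.29. Levels of different genes come from different probes and are not compared with each other. Most of these genes lay near background outside reference mesenchyme, so each difference is bounded by its probe's floor there, and its size does not rank the genes. In bulk regions like these, fewer muscle cells and less RNA per cell cannot be told apart.

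Skeletal muscle RNA was found in reference mesenchyme. There the 37 genes made up 1.04% and 0.652% of all counts in the controls, with 0.988% and 0.797% in the GOF animals, at exact 95% binomial intervals of 0.991 to 1.08, 0.628 to 0.677, 0.958 to 1.02 and 0.762 to 0.834. In the other regions they made up between 0.0515% and 0.117%, with a median of 0.0764%. For 23 of the 37 genes, all 4 reference mesenchyme regions were above every other region. The same was true of 53 of the targets in all, or 0.274% of those tested. In the fit across all targets, 33 of the 37 genes were higher in reference mesenchyme than in the mean of the other region types of both genotypes, and none was lower. Of all targets 11.6% were called in that comparison and 5.61% were higher (limma, adjusted p below 0.05). The median log2 difference of the 37 genes was 2.46, and that of all targets was -0.04. That muscle genes were high in control reference mesenchyme was known when the genes were chosen, so the direction is not independent evidence. With each region type given its own weight for its spread, 31 of the 37 were called, where 2.67% of all targets were higher. The 2 that lost their call were Myod1 and Chrna1. On simulated data the fit without weights called unchanged targets in reference mesenchyme more often than its threshold allows. The weighted fit did so far less. Every simulated region type was given the same set spread, so the check does not show how firm the calls are for these regions.

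**Figure D1:**
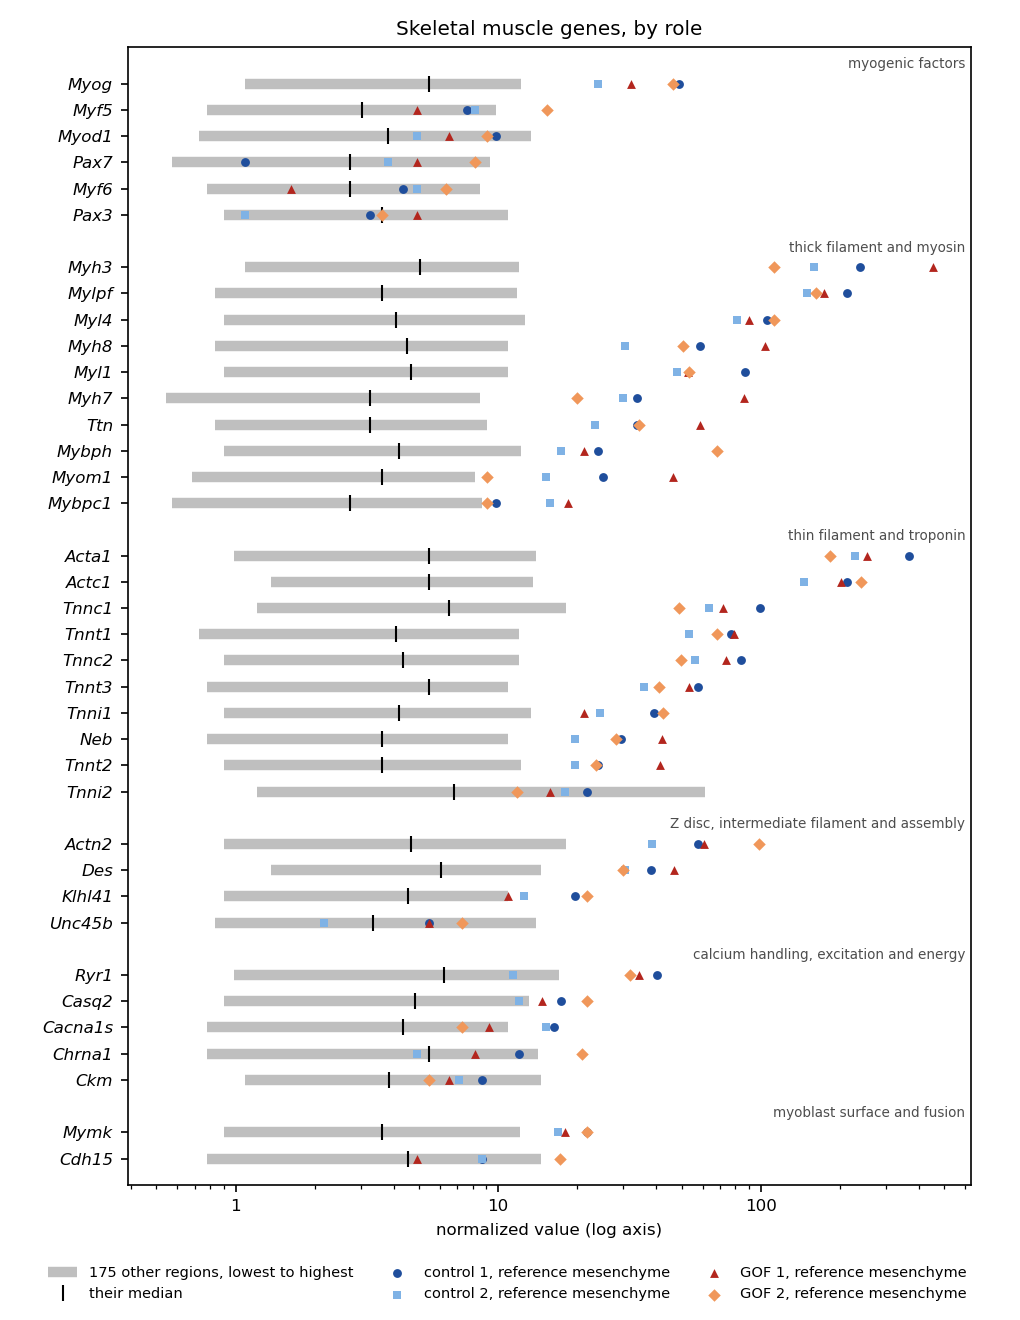
Each row is 1 gene, grouped by role. Points are the normalized value in the reference mesenchyme region of each of the 4 animals, the grey bar runs from the lowest to the highest of the other regions and the tick is their median, on a log axis. All 10 thick filament genes and 9 of the 10 thin filament genes lie beyond the bar in all 4 animals, whereas Tnni2 and most myogenic factors lie within it.

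Myog, which drives myoblasts into differentiation, was the 1 myogenic factor whose reference mesenchyme regions stood clear of all others. It read 48.9 and 23.9 in the controls, with 32.1 and 46.2 in the GOF animals, against a median of 5.44 and a highest value of 12.2 elsewhere. All 4 regions were above the rest, and the log2 difference was 2.56 (SE 0.22, adjusted p = 2.69e-08), a fold of 5.90 on the log2(value + 1) scale used throughout. Myf5, a determination factor, read 7.61 and 8.16 in the controls, with 4.89 and 15.4 in the GOF animals, against a median of 3.02 elsewhere. Only GOF replicate 2 was above the highest other region, 9.79. Its difference was 1.31 (SE 0.22, adjusted p = 0.000299), and without GOF replicate 2 it was 0.90, with an adjusted p of 0.0530.

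Myod1, the other determination factor, read 9.79 and 4.89 in the controls, with 6.53 and 9.06 in the GOF animals, all inside the range of the other regions, whose median was 3.81 and highest value 13.3. Its difference of 0.82 (SE 0.21) had an adjusted p of 0.0138. That call was lost with weights by region type (adjusted p = 0.0642), without control replicate 1 (0.0552), without GOF replicate 1 (0.129) and without GOF replicate 2 (0.221). The other myogenic factors did not pass the test. Myf6, which acts late in differentiation, differed by 0.40 (SE 0.27, adjusted p = 0.384), and Pax7 by 0.29 (SE 0.20, adjusted p = 0.399). Pax3 differed by -0.28 (SE 0.17, adjusted p = 0.332). Pax7 rested on 1 and 7 counts in the reference mesenchyme of the controls and 9 and 9 in that of the GOF animals, so low levels of these progenitor factors were not detectable at this depth.

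All 10 genes of the thick filament were higher in reference mesenchyme, with no overlap in any animal. Mylpf, the fast regulatory light chain, read 212 and 150 in the controls, with 174.6 and 162.3 in the GOF animals, against a median of 3.63 and a highest value of 11.8 elsewhere. The animals lay close together, within a ratio of 1.41 of highest to lowest, and the log2 difference was 5.12 (SE 0.13, adjusted p = 1.25e-16). Myh3, the embryonic heavy chain, read 238 and 159.4 in the controls, with 453 and 112.4 in the GOF animals, against a median of 5.02 elsewhere. Both extremes were GOF animals, 4.03 times apart, and the difference was 5.09 (SE 0.23, adjusted p = 5.42e-13).

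The other heavy chains were Myh8, the perinatal form, with a difference of 3.44 (SE 0.25), and Myh7, the slow form, with 3.17 (SE 0.24). The alkali light chains followed, Myl4, an embryonic form, with 4.27 (SE 0.18) and Myl1, a fast form, with 3.30 (SE 0.15). Titin, the spring that spans the sarcomere from Z disc to M line (Ttn), differed by 3.02 (SE 0.22). Myom1, which cross-links the M line, differed by 2.38 (SE 0.26) and had the widest spread among animals of the 10, from 9.06 in GOF replicate 2 to 46.2 in GOF replicate 1. Mybph and Mybpc1, of the myosin-binding protein family, differed by 2.52 (SE 0.22) and 1.87 (SE 0.20). Adult fast heavy chains were on a further list of muscle genes, and there Myh1 differed by 0.45 (adjusted p = 0.128), Myh2 by 0.13 (0.742) and Myh4 by -0.65 (0.0447). These 3 were named after their values were seen.

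All 10 genes of the thin filament were called higher as well. Acta1, skeletal alpha actin, read 368 and 228 in the controls, with 254 and 184 in the GOF animals, against a median of 5.44 and a highest value of 13.99 elsewhere. Its log2 difference was 5.30 (SE 0.24, adjusted p = 6.20e-13). Actc1, the cardiac alpha actin of embryonic muscle, read 212 and 146.3 in the controls, with 202 and 240 in the GOF animals. Its highest value elsewhere was 13.6, and the difference was 4.91 (SE 0.14, adjusted p = 2.68e-16).

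The troponins came as slow and fast pairs. Of the tropomyosin-binding subunits, slow Tnnt1 differed by 3.81 (SE 0.15), fast Tnnt3 by 3.0 (SE 0.18) and cardiac Tnnt2 by 2.50 (SE 0.16). Of the calcium-binding subunits, slow Tnnc1 differed by 3.25 (SE 0.17) and fast Tnnc2 by 3.67 (SE 0.19). Of the inhibitory subunits, slow Tnni1 differed by 2.46 (SE 0.19) and fast Tnni2 by 1.22 (SE 0.18, adjusted p = 7.82e-05). Tnni2 was the thin filament gene whose regions overlapped with the others, since 34 other regions exceeded its lowest reference mesenchyme value of 11.8. Neb, the giant protein along the thin filament, differed by 2.74 (SE 0.23).

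Of the 4 genes of the Z disc, the intermediate filament and assembly, 3 were called higher. Actn2, the alpha actinin that anchors thin filaments, read 57.7 and 38.6 in the controls, with 60.9 and 98.8 in the GOF animals against at most 18.1 elsewhere, a difference of 3.48 (SE 0.18). Des, the muscle intermediate filament desmin, differed by 2.41 (SE 0.19). Klhl41, a ubiquitin ligase adaptor needed for sarcomere integrity, differed by 1.74 (SE 0.27), and without GOF replicate 2 by 1.48 with an adjusted p of 0.0620. Unc45b, the myosin chaperone, read between 2.18 and 7.25, inside the range of the other regions, and differed by 0.33 (SE 0.23, adjusted p = 0.390).

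The 5 genes of excitation, calcium and energy were called higher, and none of the 5 was clear of the other regions in all 4 animals. Ryr1, the calcium release channel, read 40.2 and 11.4 in the controls, with 34.3 and 31.7 in the GOF animals, against a median of 6.22 and a highest value of 17.1 elsewhere. Control replicate 2 was the low one, and the difference was 1.80 (SE 0.22, adjusted p = 5.94e-06). Casq2, the cardiac calsequestrin, differed by 1.57 (SE 0.17) and Cacna1s, the voltage sensor that opens Ryr1, by 1.25 (SE 0.14). Ckm, muscle creatine kinase, differed by 0.87 (SE 0.17). Chrna1, the acetylcholine receptor subunit, differed by 0.77 (SE 0.24, adjusted p = 0.0401) and lost its call with weights by region type (adjusted p = 0.129), without control replicate 1 (0.244) and without GOF replicate 2 (0.569).

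Of the genes of fusion and the myoblast surface, Mymk, the membrane protein myomaker that lets myoblasts fuse, read 21.8 and 16.9 in the controls, with 17.95 and 21.8 in the GOF animals, against at most 12.1 elsewhere. The animals lay close together and clear of all other regions, and the difference was 2.14 (SE 0.18, adjusted p = 1.27e-08). Cdh15, the cadherin of myoblasts, read 8.70 and 8.70 in the controls, with 4.89 and 17.2 in the GOF animals, and only the last was above all other regions. Its difference of 0.91 (SE 0.20, adjusted p = 0.00393) lost its call without control replicate 1 (0.0696), without control replicate 2 (0.0557) and without GOF replicate 2 (0.121).

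From the further list of 86 measured muscle genes, 43 were called higher in reference mesenchyme and 2 lower, with a median log2 difference of 0.65. Of these 43, 25 were highest in reference mesenchyme in all 4 animals. The largest differences among the 25 were those of Tpm2, beta tropomyosin (2.73, SE 0.13), Myom2, an M line protein (2.28, SE 0.23), Ldb3, a Z disc protein (2.04, SE 0.15), Cox6a2, a muscle subunit of cytochrome oxidase (1.90, SE 0.16), Srl, a sarcoplasmic reticulum protein (1.90, SE 0.18), Atp2a1, the fast calcium pump (1.88, SE 0.23), Myl6b, a slow alkali light chain (1.73, SE 0.22), and Smyd1, a methyltransferase that assists myosin assembly (1.34, SE 0.20). The 2 lower genes were Myh4 and Xirp2, an actin-binding protein of mature muscle (-0.72, SE 0.16).

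Markers of other cells in the same regions were measured beside these results, and their part in them was not tested. All 8 chondrocyte markers were lower in reference mesenchyme, where their summed level was between 135.97 and 272, against a median of 4473 in border-zone cartilage. Of the 5 tendon markers 4 were higher, with a summed level between 46.2 and 505 in reference mesenchyme. The lowest of these was GOF replicate 2, where Thbs4, a tendon matrix protein, read 10.9, against 110.95 and 238 in the controls and 180.6 in GOF replicate 1. Of the 8 genes listed as fibroblast markers (Tcf4, Osr1, Tbx5, Tbx4, Pdgfra, Lum, Dcn and Col3a1) 3 were higher. How specific each is to fibroblasts of the knee was not tested. Dcn, the matrix proteoglycan decorin, was highest in GOF replicate 2 at 185, against 45.7, 41.3 and 71.2 in the other animals. Of the 8 smooth muscle and pericyte markers Acta2 and Notch3 were higher. Acta2, smooth muscle actin, which embryonic skeletal muscle also expresses, differed by 4.41 (SE 0.21). Notch3 differed by 1.06 (SE 0.17). Myh11 and Cnn1, of mature smooth muscle, differed by -0.20 and -0.24 and read at most 5.98 in those 4 regions. Abcc9 differed by 0.66 (SE 0.21, adjusted p = 0.0507), just short of the threshold. Tagln differed by 0.48, Rgs5 by 0.10 and Pdgfrb by -0.12, and these did not pass the test either. Of the 7 macrophage markers C1qa, C1qb and Mrc1 were higher over both genotypes. Within genotypes 0 of the 7 were called higher in the controls (2.53% of all targets) and 3 in the GOF animals (4.03%). The summed level of the 7 was between 32.1 and 76.1 in reference mesenchyme, against a median of 32.6 in border-zone cartilage. C1qb, a complement chain, read 6.53 and 6.53 in the controls, with 17.4 and 16.3 in the GOF animals (log2 difference from the other types 1.06, SE 0.17). Of the 7 endothelial markers Kdr, a receptor for vascular growth factor, was higher (0.90, SE 0.25), with a summed level between 32.6 and 66.2. Of the 5 measured erythroid markers Hba-a1, a haemoglobin chain, was higher (1.503, SE 0.40), with a summed level between 72.3 and 815. Within genotypes 0 of the 5 were called higher in the controls and 1 in the GOF animals, against the same shares of all targets. Hba-a1 was far higher in GOF replicate 2 than in the other animals, as given below. None of the 4 measured heart markers, Nppa, Myh6, Nkx2-5 and Tnni3, was called higher, and none of the 7 Schwann cell and neuron markers.

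Outside reference mesenchyme most of the 37 genes lay near background. Their medians over the other regions were between 2.72 and 6.8, and 33 of the 37 medians were below 5.93, the median over all targets of the same quantity. Set against the negative probe of the same region, the typical gene of the 37 read 1.48 times background, and the typical target 2.10 times. The mean log2 level of the 20 sarcomere genes was between 5.44 and 6.07 in reference mesenchyme and between 1.87 and 2.88 elsewhere, with no overlap. The mean over the 6 myogenic factors was between 2.71 and 3.54 in reference mesenchyme and between 1.36 and 2.67 elsewhere, so the highest other region came close. The sarcomere mean over the other regions had a standard deviation of 0.19 and correlated with the log2 negative probe of the region (r = 0.43) and with its log2 total count (r = 0.34). The genes outside both muscle lists whose level followed it most were Tmtc2 (r = 0.36), 4930578G10Rik (0.35), Dnajc3 (0.33), Tspan7 (0.33), Trim40 (0.33) and Sptlc3 (0.33). All of these were below the correlation with the negative probe, and no more is read from them.

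**Figure D2:**
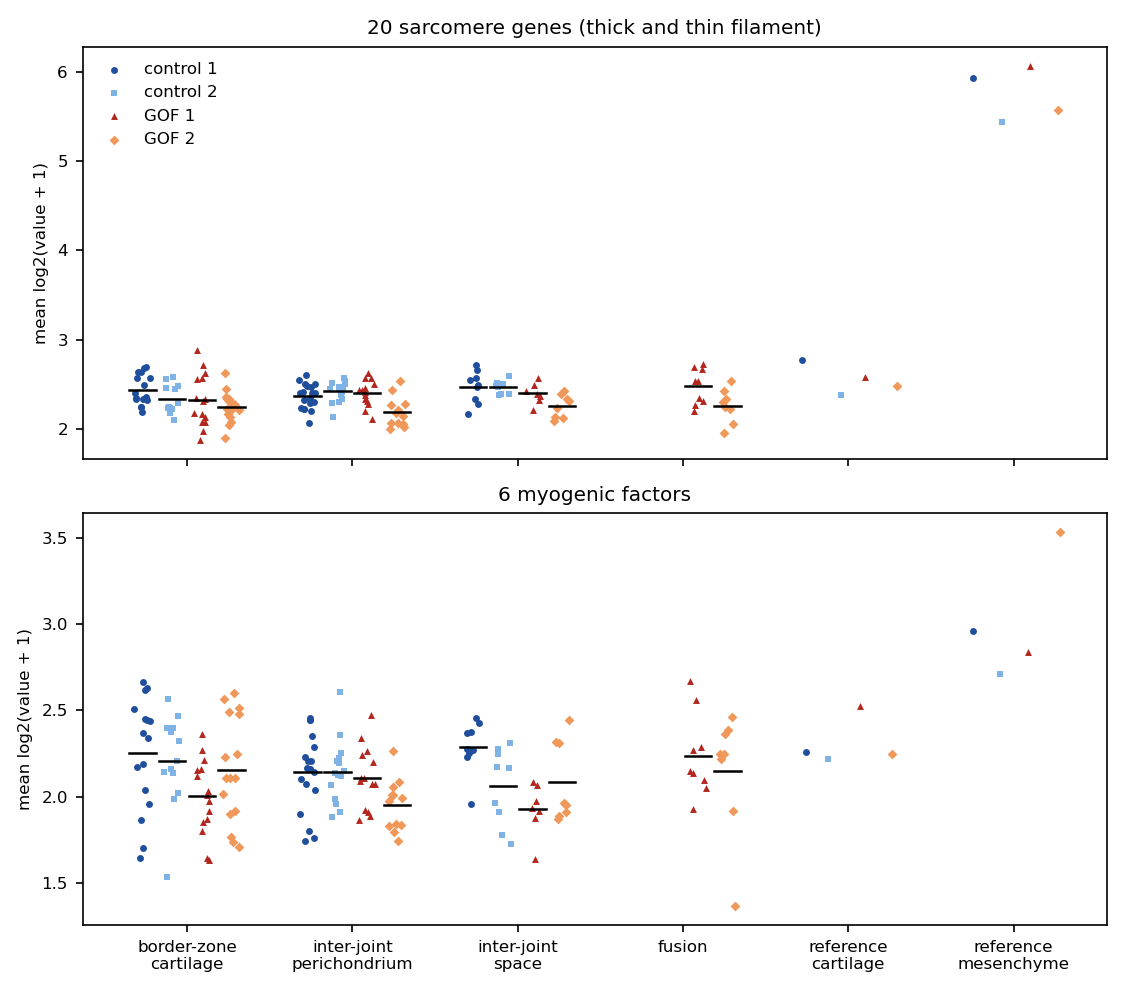
Each point is 1 region, and the axes give the mean log2(value + 1) of the 20 sarcomere genes (top) and of the 6 myogenic factors (bottom) by region type and animal, with a bar at the mean of each animal. The 4 reference mesenchyme regions lie above 5.44 in the top panel, where every other region lies at or below 2.88. In the bottom panel the gap is narrow.

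No skeletal muscle gene passed the test between genotypes. In reference mesenchyme, GOF minus control called 0 of the 37 genes, where 0.853% of all targets were called, and 5 of the 37 (13.5%) had an unadjusted p below 0.05, as did 16.3% of all targets. By edgeR on recovered counts 0 were called as well, where 0.134% of all targets were. The median log2 difference of the 37 genes was 0.13, and 26 were positive. The typical 95% interval reached 0.76 to each side, or 1.69-fold, before any adjustment over targets. Larger differences could also be missed with 2 animals per genotype, since Pax7 at 1.21 was not called. The width is shared with types of many regions, so it may be too small for reference mesenchyme. An exact permutation test over 2 against 2 animals cannot go below a two-sided p of 0.333.

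The lowest p values in reference mesenchyme were those of Cacna1s and Pax7. Cacna1s read 16.3 and 15.2 in the controls, with 9.25 and 7.25 in the GOF animals, with no overlap. Its log2 difference was -0.87 (SE 0.26, adjusted p = 0.107), and with a pseudocount of 5 it was -0.65 with an adjusted p of 0.0482. Pax7 read 1.09 and 3.81 in the controls, with 4.89 and 8.16 in the GOF animals, a difference of 1.21 (SE 0.36, adjusted p = 0.107). Without control replicate 2 the Pax7 difference was 1.82, and its control side then rested on 1 count, at 0.366 times the negative probe. Mybph read 23.9 and 17.4 in the controls, with 21.2 and 67.99 in the GOF animals, a difference of 0.87 (SE 0.39, adjusted p = 0.277). Without GOF replicate 1 the Mybph difference was 1.69. Both of these fits with an animal left out set 1 animal against 2. With weights by region type 0 of the 37 were called (0.0155% of all targets). Among the markers of other cells, Mrc1, a macrophage receptor, was called higher in the GOF animals in these regions (log2 difference 1.56, adjusted p = 0.0258), and the chondrocyte marker Sox5 and the tendon markers Tnmd and Kera were called lower. With weights these 4 lost their call (adjusted p from 0.381 for Kera to 0.593 for Mrc1).

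**Figure D3:**
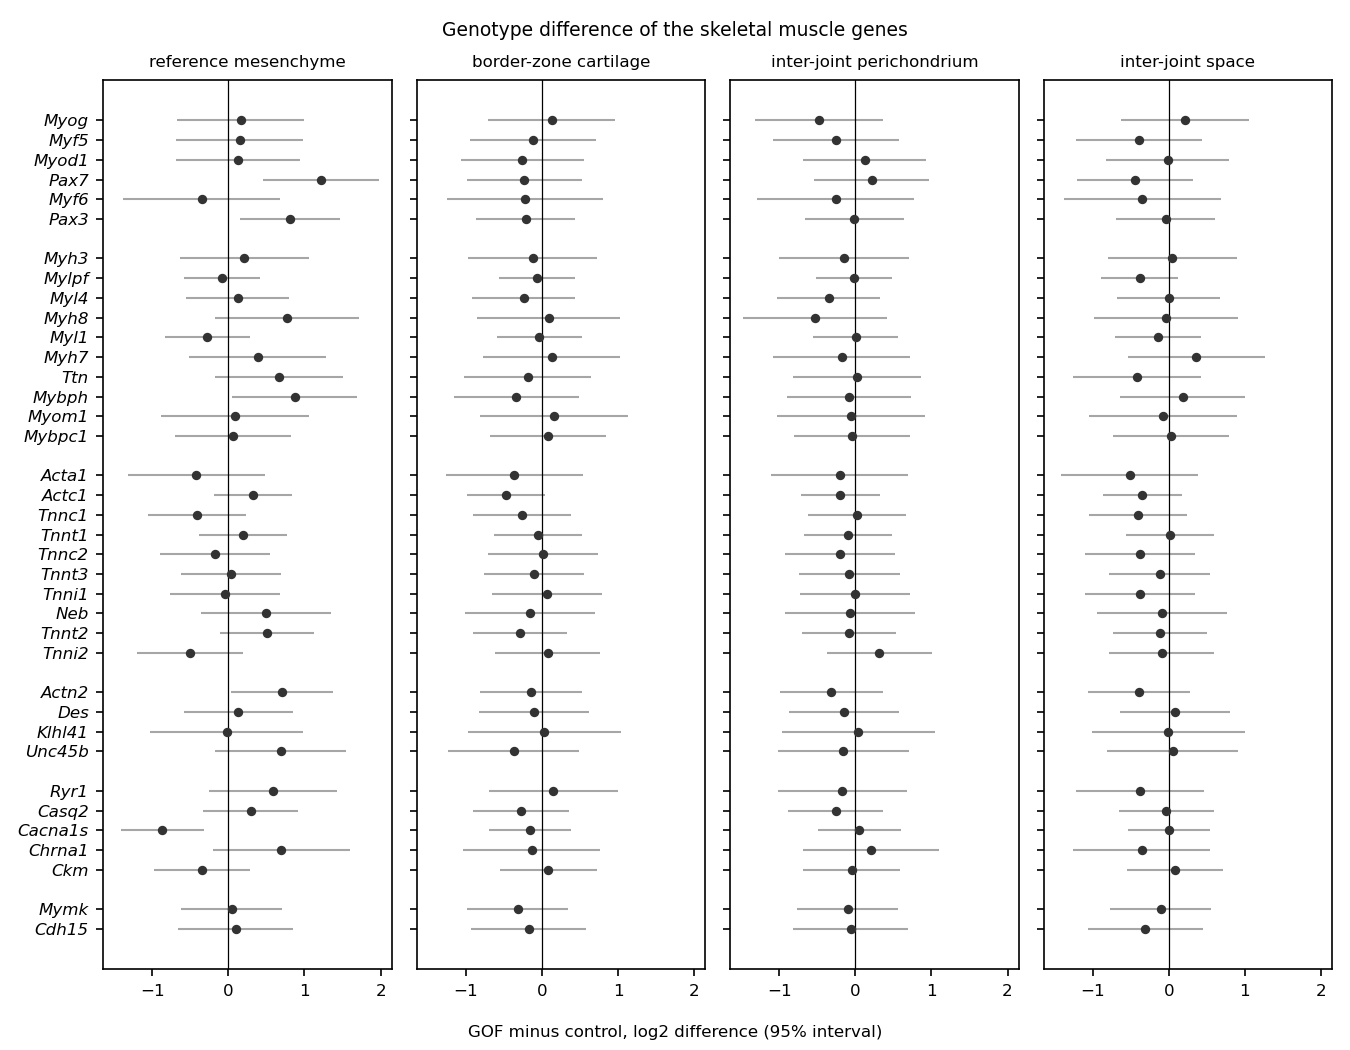
Points are the GOF minus control log2 difference of each of the 37 genes in 4 region types, and lines are 95% intervals from the limma fit with 2 animals per genotype. No gene had an adjusted p below 0.05, and Cacna1s and Pax7 in reference mesenchyme lie farthest from 0 relative to their intervals.

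No member passed the test in the joint regions either. GOF minus control called 0 of the 37 genes in border-zone cartilage, where 0.00517% of all targets were called, 0 in inter-joint perichondrium (0.0155%) and 0 in inter-joint space (0.103%). No member had an unadjusted p below 0.05 in any of these, where 0.336%, 0.941% and 2.11% of all targets did. These shares are low, so a count of 0 among 37 genes says little about these genes. By edgeR 0 were called in each, where 0.16%, 1.18% and 1.86% of all targets were. The log2 differences of the 37 genes ran from -0.47 to 0.16 in border-zone cartilage, from -0.53 to 0.31 in perichondrium and from -0.51 to 0.36 in inter-joint space. Acta1, for example, averaged 5.15 and 7.47 in the inter-joint space of control replicates 1 and 2 and 4.74 and 3.34 in that of GOF replicates 1 and 2. These are levels near background, where a difference in muscle RNA could not be seen. In the GOF animals, fusion regions minus inter-joint space also called 0 of the 37 (0.222% of all targets). There 0 had an unadjusted p below 0.05, against 2.49% of all targets.

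None of the 37 genes passed the test for a difference between genotypes in the excess of reference mesenchyme over the other types. The interaction called 0 of the 37 genes, where 0.393% of all targets were called, and 9 of the 37 (24.3%) had an unadjusted p below 0.05, as did 14.2% of all targets. By edgeR 0 were called (0.0672% of all targets). Cacna1s had the lowest p, with a log2 difference of -1.12 (SE 0.29, adjusted p = 0.0814). Within genotypes, 30 of the 37 genes were higher in the reference mesenchyme of the controls, where 2.53% of all targets were higher, and 30 in that of the GOF animals, where 4.03% were. In the controls Pax3 was lower by the test (log2 difference -0.84, SE 0.24, adjusted p = 0.0424), on 3 and 2 counts, where 4.03% of all targets were lower. In the GOF animals it differed by 0.28 (SE 0.24, adjusted p = 0.557), and the interaction for Pax3 was 1.12 (SE 0.35, adjusted p = 0.146).

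Among the reference mesenchyme regions, control replicate 2 held the lowest share of muscle counts, and for none of the 33 called genes was it the highest animal. Control replicate 1 alone was highest for 12 of the 33, GOF replicate 1 for 10 and GOF replicate 2 for 10, and in 1, Mymk, control replicate 1 and GOF replicate 2 were tied. The GOF animals differed in which genes were high. GOF replicate 1 was highest for 6 of the 10 thick filament genes, and GOF replicate 2 for 2 of them. The 4 regions thus differed among animals in the balance of these genes, as well as in their sum.

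Tnni2, the fast inhibitory troponin subunit (chr7:142441816-142444410 in RefSeq on GRCm38.p6), had the highest median ratio to the negative probe of the 37 genes outside reference mesenchyme, 2.46. Tnnc1 (2.32), Ryr1 (2.18) and Des (2.17) came next, and these 4 were above the ratio of the typical target. In inter-joint space it averaged 13.8 and 11.4 in the controls, with 9.64 and 16.5 in the GOF animals. In border-zone cartilage it averaged 6.56 and 4.90 in the controls, with 6.85 and 6.57 in the GOF animals, so the animals did not overlap between these types. Perichondrium lay between, at 6.96 and 7.18 in the controls, with 9.0 and 11.3 in the GOF animals. In fusion regions Tnni2 averaged 8.20 and 5.87 in GOF replicates 1 and 2, and in reference mesenchyme, the highest type in the controls, it read 21.8 and 17.9 in the controls, with 15.8 and 11.8 in the GOF animals. Values of at least 10 were found in 18 of 33 inter-joint space regions, 11 of 61 perichondrium regions, 7 of 60 border-zone regions and 3 of 17 fusion regions.

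Inter-joint space minus border-zone cartilage gave a log2 difference of 0.86 for Tnni2 (SE 0.23, adjusted p = 0.0597), which missed the threshold, as did all other members. Of all targets 2.01% were called in that comparison, and 1 of the 37 genes, Tnni2, had an unadjusted p below 0.05, as did 6.35% of all targets. It was called with weights by region type (adjusted p = 1.73e-07), where 9.73% of all targets were called, in a fit of the joint regions alone (3.32e-07, 11.1% of all targets) and by edgeR on recovered counts (2.05e-06, 7.45%). Without the highest region, in GOF replicate 2 at 61.1, the difference was 0.79 (adjusted p = 0.0963). Inter-joint space minus perichondrium was 0.47 (SE 0.23, unadjusted p = 0.0543), and perichondrium minus border-zone cartilage 0.39 (SE 0.23, unadjusted p = 0.107). In those comparisons 0 of the 37 genes were called, where 0.0258% and 0.501% of all targets were. In both, 0 had an unadjusted p below 0.05, against 1.70% and 2.82% of all targets. By edgeR Tnni2 alone was called in the first (1.34% of all targets) and 0 in the second (3.35%). In the GOF animals Tnni2 in fusion minus inter-joint space was -0.63 (SE 0.33, unadjusted p = 0.0682), and edgeR called it lower in fusion (adjusted p = 0.0189), where 2.17% of all targets were called. GOF minus control in inter-joint space was -0.09 (SE 0.33, adjusted p = 1.00).

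**Figure D4:**
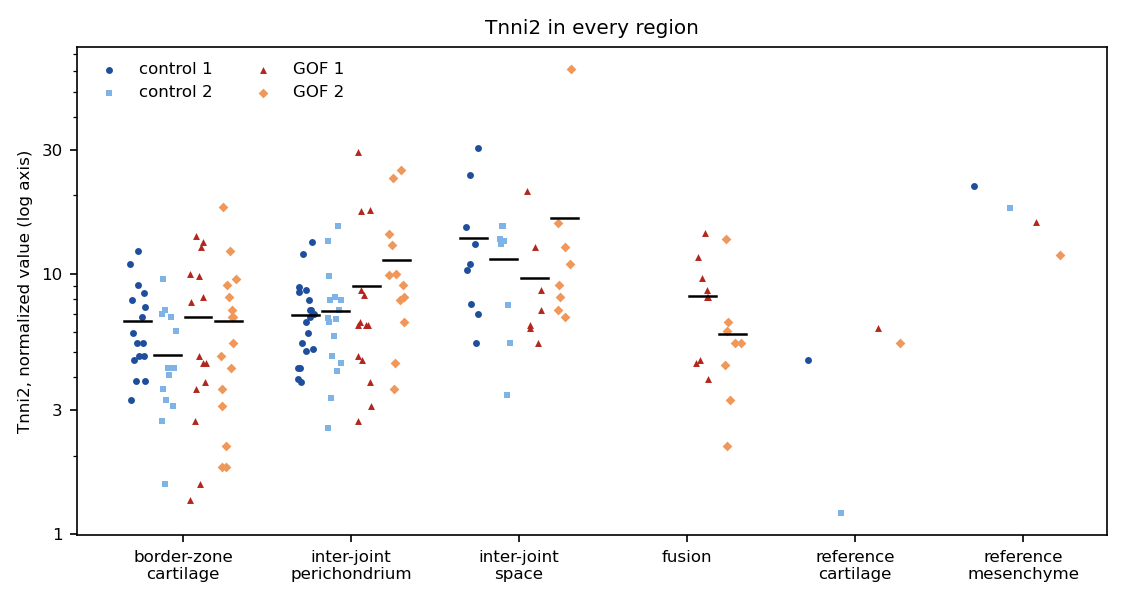
Each point is the Tnni2 value of 1 region on a log axis, by region type and animal, with a bar at the mean of each animal. Inter-joint space means lie between 9.64 and 16.5 in the 4 animals and border-zone cartilage means between 4.90 and 6.85.

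Like Tnni2, the rest of the 37 genes passed no main test among the joint types. The partners of Tnni2 in the fast troponin complex stayed near background, with Tnnt3 at a mean over animals of 5.88 in inter-joint space and 5.10 in border-zone cartilage, and Tnnc2 at 4.79 and 4.58. Over the regions outside reference mesenchyme the correlation with Tnni2 was 0.10 for Tnnt3 and 0.02 for Tnnc2. Des was the only other member called in any fit among the joint types, higher in inter-joint space than in border-zone cartilage with weights by region type (0.36, adjusted p = 0.0298) and in the fit of the joint regions alone, but not in the main comparison (SE 0.24, unadjusted p = 0.147). Des averaged 8.04 and 6.25 in the inter-joint space of control replicates 1 and 2 and 7.22 and 8.03 in that of GOF replicates 1 and 2, against 6.45, 5.87, 5.75 and 5.72 in their border-zone cartilage.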

How the data were processed

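GeoMx profiling gave 1 column of values per region for 4 animals. The deposited values are signal: per the file headers, the authors scaled each region's counts so that its upper quartile over all targets matched the others. The submitters' processing notes name Seurat and mm10 (counting program: not given in the sources used here). Within a region 99.98% of values were multiples of a single step (tolerance 0.01 of a count), which gave back counts, and 4 targets were not whole in most regions. Depth ran from 55471 to 617062 counts, and intervals cover counting error only.

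The region values of an animal and type, as log2(value + 1), were averaged to 22 means in 11 groups of genotype and type. These were fitted in limma 3.58.1 (R 4.3.3, eBayes with trend, correlation within an animal 0.0258). P values were adjusted by Benjamini-Hochberg over all 19346 targets other than the negative probe. Reference types, with few regions, shared their spread with types of many regions, so their p values may be too small, and fits with weights by type are given beside the results. Tested on simulated data, the unweighted fit made more false calls in reference mesenchyme than its threshold allows, and the weighted fit far fewer. edgeR 4.0.16 was run on the recovered counts. Same-numbered animals deviated with correlations of -0.01 to 0.05. No pairing by number was seen, and a weak shared effect would not show in this check.

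All 37 genes were accounted for. From a further muscle list, the 8 genes with the largest difference were named among those called higher and highest in reference mesenchyme in all 4 animals, and outside both lists the 6 with the highest correlation to the sarcomere mean. The genes and lists were chosen with earlier results of these data known. Whether the animals came from separate litters is not stated, so p values measure the spread between these samples. Probe sequences were not used here, so cross-reaction between paralogues such as the actins was not tested. Alternatives were the pseudocount, a filter, the blocks, the median, background subtraction, weights, edgeR, each animal left out and the joint regions alone. One result among the further muscle list is not reported here.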

Additional observations from a re-analysis of the deposited data

How the results depend on the processing

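The count of 33 higher genes in reference mesenchyme was 28 to 32 when single animals were left out (28 without GOF replicate 2) and stayed within that range or at 33 in the other settings, except under the filter on low targets. That filter, set at 2 times the negative probe, left 10760 targets and 16 of the 37 genes, and all 16 were called. Outside reference mesenchyme the typical gene of the 37 read 1.48 times background. A gene may thus have passed the filter through its reference mesenchyme values, and these 16 calls are no added support. With the replicate number as a block, 33 were called again, the same genes, and the block moved no other count. No pairing of the animals by number was seen.

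Counts of 0 moved to 1 or 2 as follows. In inter-joint space minus border-zone cartilage, 1 gene was called with a pseudocount of 5, the filter, background subtraction and both edgeR scalings, and 2 with weights by region type and with the joint regions alone. In inter-joint space minus perichondrium, 1 was called with weights, with the joint regions alone and by both edgeR scalings. In perichondrium minus border-zone cartilage, 1 was called with weights and with the joint regions alone. In fusion minus inter-joint space, 1 was called with the joint regions alone and by both edgeR scalings. All of these were Tnni2, with Des beside it where there were 2. Inter-joint space minus border-zone cartilage called 9.73% of all targets with weights and 11.1% with the joint regions alone. By edgeR it called 7.45%, against 2.01% in the main fit. In fusion minus inter-joint space edgeR called 2.17% (0.222% in the main fit), and in inter-joint space minus perichondrium 1.34% (0.0258%). More of all targets were called in the fits whose share is given, so 1 or 2 calls say little about muscle genes as a set. For the other fits named here the share of all targets was not tallied, and nothing is read from their calls. A pseudocount of 5 called 1 gene, Cacna1s, in GOF minus control in reference mesenchyme and 1, the same gene, in the interaction. The share of all targets was not tallied there either. Leaving out animals gave 0 to 1 call in GOF minus control in reference mesenchyme and 0 in the interaction and in all comparisons of the joint types. The cause was not tested.

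Signs turned in results that passed no test. Tnni2 in GOF minus control in inter-joint space was 0.17 and 0.14 by the edgeR scalings, and leaving out animals gave -0.32 to 0.13. In reference mesenchyme, leaving out animals gave -0.079 (without GOF replicate 2) to 0.88 for Myf6 and -0.018 (without control replicate 2) to 0.60 for Pax7. Leaving out the region with the highest Tnni2 was chosen after seeing the data and changed no call. Depth limits the low genes: background read 1.72 to 4.29, so values of a few units carry few counts above it.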

Other observations

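The balance between embryonic myosin and Myog differed among the reference mesenchyme regions, a comparison chosen after the values were seen. Myh3 was counted 4.87 times for each count of Myog in control replicate 1 (exact 95% interval 3.52 to 6.87), 6.66 times in control replicate 2 (4.84 to 9.36), 14.1 times in GOF replicate 1 (10.8 to 18.7) and 2.43 times in GOF replicate 2 (1.74 to 3.44). The GOF animals lay on either side of the controls, beyond counting error, so the ratio separated animals and not genotypes. Actc1 per count of Myog was 4.33, 6.11, 6.31 and 5.20 in the same order, a much narrower range. In GOF replicate 2, where Myh3 and Myom1 were lowest of the 4 animals, Mybph, Chrna1, Cdh15 and Myf5 were highest. The same animal was also highest for other sarcomere genes such as Actc1, Myl4, Tnni1 and Actn2, and Myog was highest in control replicate 1. These genes thus do not sort by role. The region of GOF replicate 2 also had the lowest tendon markers, the highest Dcn and the highest Hba-a1, a haemoglobin chain (792, against 56.6 to 93.5 in the other animals). With 1 such region per animal, the place of the section and the animal cannot be told apart.

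Over the regions outside reference mesenchyme, the genes that followed Tnni2 most were Nrep (r = 0.52), Aqp1 (0.52), Nfia (0.50) and Mylk (0.50), and those that ran against it most were Hapln1 (-0.51), Prelp (-0.50), Auts2 (-0.49) and Col2a1 (-0.48). These are descriptions over regions that share animals and that pool region types. Hapln1 and Col2a1 are among the 8 chondrocyte markers, all called lower in inter-joint space than in border-zone cartilage (2.01% of all targets called in either direction). Whether these genes follow Tnni2 within a region type was not tested. The correlation of Tnni2 with the negative probe was -0.10. The region with the highest value, in the inter-joint space of GOF replicate 2, rested on 73 counts, and the next highest in inter-joint space, in control replicate 1, read 30.5 on 28 counts. Lsp1 and Syt8 were examined as possible chromosomal neighbours of Tnni2, and their correlations with it were 0.12 and -0.15.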
